A study of Mus musculus with 8 samples.

Results

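Aquaporins are membrane channels for water, and the aquaglyceroporins among them also pass glycerol and other small solutes. The 7 described here (Aqp1, Aqp3, Aqp4, Aqp7, Aqp8, Aqp9 and Aqp11) were named as aquaporins of liver, out of 22180 genes measured. They were chosen by family name with earlier results of these data known, and the row of each was selected on its mean level across the 8 arrays. Since each of the 7 has a single row that names it alone, the selection discarded none. Liver RNA was profiled on 8 Affymetrix arrays that measure transcripts with short probes along each gene. The group labelled IL-10 knockout and the wild-type group have 4 arrays each, from 4 mice each by the study's design text. All 8 mice are labelled C57BL/6, female and 6 weeks old, and all received 3% dextran sulfate sodium (DSS), which injures the lining of the colon, in drinking water over 7 days. Both groups thus share the treatment, and the sources used here do not say how the interleukin-10 gene was disrupted. The comparison asks how liver transcripts differ between the genotypes when both have colitis.

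In hepatocytes, water crosses into bile through channels of the canalicular membrane, which faces the bile canaliculus, and exchanges with blood across the sinusoidal membrane. Aqp8 is known from hepatocyte vesicles, the canalicular membrane and mitochondria, and passes water, ammonia and hydrogen peroxide. Aqp9, on the sinusoidal membrane, takes up glycerol for glucose synthesis and passes urea. Aqp11 is a divergent member of the endoplasmic reticulum whose loss in mice causes vacuoles in the proximal tubule of the kidney and in hepatocytes. Aqp1 is the water channel of red cells, endothelium and bile duct cells. Aqp3 and Aqp7 are aquaglyceroporins, Aqp3 of epithelia and Aqp7 of adipocytes, and Aqp4 is best known from astrocytes.

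The promoters of the 3 members whose groups did not overlap, Aqp8, Aqp11 and Aqp1, are shown as the 250 bases before the start site, from RefSeq on GRCm38.p6. They lie at chr7:123462044-123462293 (plus strand), chr7:97738248-97738497 (minus strand) and chr6:55336049-55336298 (plus strand), and capitals mark a match to AGGTCA, a core site of nuclear receptors, on either strand.
Aqp8: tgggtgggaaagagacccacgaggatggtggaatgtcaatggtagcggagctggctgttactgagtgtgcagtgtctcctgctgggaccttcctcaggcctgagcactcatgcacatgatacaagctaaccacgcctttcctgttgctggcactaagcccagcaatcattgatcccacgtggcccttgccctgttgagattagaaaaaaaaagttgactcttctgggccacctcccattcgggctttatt
Aqp11: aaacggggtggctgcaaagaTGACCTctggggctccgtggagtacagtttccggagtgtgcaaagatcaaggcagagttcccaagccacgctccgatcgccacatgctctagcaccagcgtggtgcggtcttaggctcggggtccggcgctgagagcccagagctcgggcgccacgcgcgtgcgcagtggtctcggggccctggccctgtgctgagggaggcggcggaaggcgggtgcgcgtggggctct
Aqp1: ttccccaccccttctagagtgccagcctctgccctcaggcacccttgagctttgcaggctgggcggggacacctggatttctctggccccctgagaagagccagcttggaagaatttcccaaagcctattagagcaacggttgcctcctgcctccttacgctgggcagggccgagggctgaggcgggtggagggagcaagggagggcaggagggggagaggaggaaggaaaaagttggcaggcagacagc
The Aqp11 window holds 23 CG pairs, more than 86.7% of 32851 promoter windows of this length, whereas the Aqp8 and Aqp1 windows hold 5 each, near the median of 6. The AGGTCA match lies at -230 to -225 from the Aqp11 start site and reads on the reverse strand; 14% of all windows hold this motif. Searched on both strands without a match in the 3 windows were TATAAA, held by 12.4% of all windows, and the CCAAT box, held by 33.8%. Also without a match were TTCNNNGAA, a motif of STAT factors held by 7.0%, and TGTTTAC, a forkhead motif held by 3.2%. RefSeq windows were matched for 6 of the 7 members. No member lies on the chromosome of Il10, and Aqp3 and Aqp7 are adjacent coding genes on chromosome 4.

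Il10 itself read 5.79, 5.69, 6.00 and 6.41 in replicates 1 to 4 labelled knockout, against 4.95, 5.08, 4.90 and 4.95 in wild-type replicates 1 to 4 (log2 values, as are all levels below). The targeted gene was therefore higher in all 4 arrays labelled knockout than in any wild-type array, with means that differ by 1.00 (SE 0.14; limma adjusted p = 0.00851). Whether Il10 stands above background cannot be told from levels alone, and its wild-type values lay below every array median. The sources used here do not place the mutation relative to the probes of Il10, and each direction below rests on the labels. The labels also name every mouse female, yet in replicates 1 and 2 of both groups the Y-linked genes Eif2s3y, Kdm5d and Uty averaged 8.20 to 8.52 and Xist 5.62 to 6.32, while in replicates 3 and 4 of both groups they averaged 4.30 to 4.48 and Xist 11.7 to 11.8. Each set of arrays holds 2 of each group, so the genotype comparison is also given within them. Array medians lay between 6.09 and 6.22 on the deposited scale. The labels do not say which array came from which mouse, so the p-values speak only of the spread among these 8 arrays, which may in part be technical.

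Aqp8 fell in the arrays labelled knockout, to a level 5.36-fold below wild type, and was the only one of the 7 members called (limma, adjusted p below 0.05), against 3.15% of all 22180 genes. Among all genes 347 were called higher and 352 lower, and the split became 236 higher and 393 lower with a common median per array. With quantile normalization it was 434 higher and 425 lower, and with cyclic loess 417 higher and 479 lower. Aqp8 read 8.56, 8.06, 7.42 and 7.30 in the 4 replicates labelled knockout, against 10.13, 10.41, 10.30 and 10.19 in wild-type replicates. Every array labelled knockout lay below every wild-type array, with a gap of 1.57 between the nearest 2. The means were 7.84 ± 0.59 in arrays labelled knockout and 10.26 ± 0.13 in wild-type arrays (SD, n = 4 each), which differ by -2.42 on the log2 scale (SE 0.24; 95% interval -2.95 to -1.89; limma adjusted p = 0.00587). It ranked 5 among all genes by p, and over 20 alternatives the difference stayed between -2.88 and -1.96, with adjusted p from 0.000617 to 0.0239. Some of these alternatives, such as leaving out the lowest 40% of genes, could not move the difference, which stayed at -2.42. This fall was known when the 7 genes were chosen, so it is no independent support for a choice of aquaporins.

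**Figure D1:**
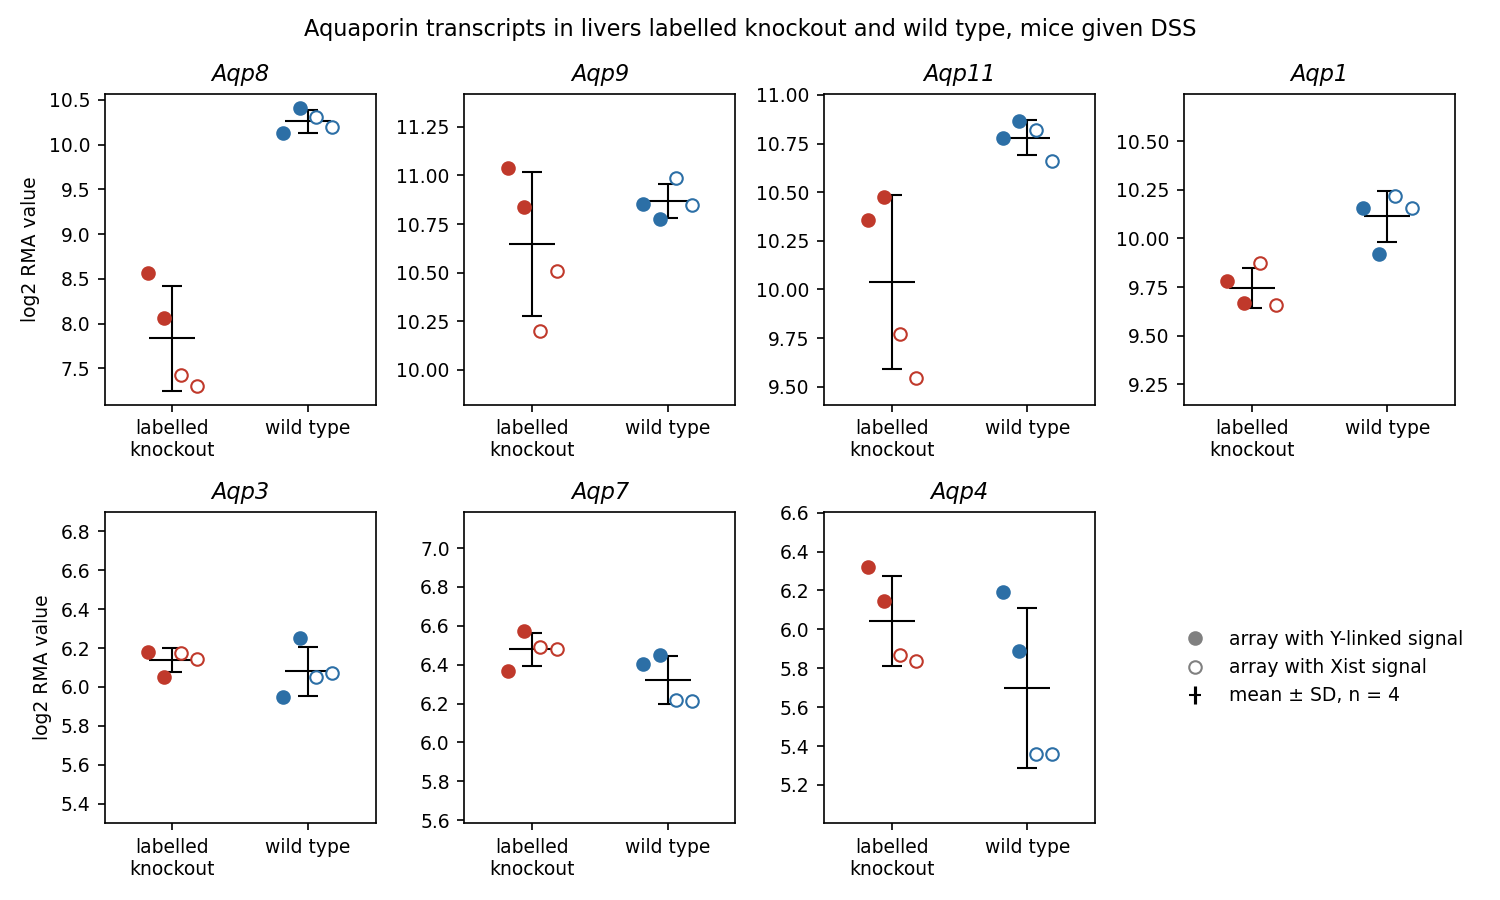
Log2 RMA value (y axis) of each of the 7 aquaporins in the 4 arrays labelled knockout (red, left) and the 4 wild-type arrays (blue, right); filled points are arrays with Y-linked signal, open points arrays with Xist signal, and black bars are mean ± SD. Each panel has its own y range: the groups are apart for Aqp8, Aqp11 and Aqp1, and the open red points are the lowest of Aqp8, Aqp9 and Aqp11.

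The hepatocyte channel Aqp9 did not pass. It read 11.04, 10.84, 10.20 and 10.51 in replicates labelled knockout, against 10.85, 10.78, 10.99 and 10.85 in wild-type replicates. The groups overlapped, because replicate 1 labelled knockout was the highest of all 8 arrays and replicate 3 the lowest. Arrays labelled knockout averaged 10.65 ± 0.37 and wild-type arrays 10.87 ± 0.09 (SD, n = 4 each), which differ by -0.22 on the log2 scale (SE 0.16; limma adjusted p = 0.443). Without replicate 3 labelled knockout the difference was -0.07, and without replicate 1 it was -0.35.

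The endoplasmic reticulum member Aqp11 missed the threshold with its groups apart. Aqp11 read 10.36, 10.47, 9.77 and 9.55 in replicates labelled knockout, against 10.78, 10.86, 10.82 and 10.66 in wild-type replicates. All arrays labelled knockout were lower, by 0.19 at the nearest point, and the 2 lowest were replicates 3 and 4. Its difference was -0.74 (SE 0.19; 95% interval -1.16 to -0.33; limma adjusted p = 0.0617), or 1.67-fold, between means of 10.04 ± 0.45 in arrays labelled knockout and 10.78 ± 0.09 in wild-type arrays (SD, n = 4 each). With the 2 sets of arrays as a block it was called (limma adjusted p = 0.0190; range over 20 alternatives 0.0190 to 0.206), as it was without replicate 1 (0.0395) or replicate 2 (0.0352) labelled knockout.

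Aqp1, of red cells, endothelium and bile duct cells, was the third member with groups apart. It read 9.78, 9.67, 9.87 and 9.66 in replicates labelled knockout, against 10.16, 9.92, 10.22 and 10.16 in wild-type replicates. The gap between the nearest arrays was 0.05, between replicate 3 labelled knockout and wild-type replicate 2. The difference was -0.37 (SE 0.09; 95% interval -0.56 to -0.18; limma adjusted p = 0.0507), or 1.29-fold, between means of 9.75 ± 0.10 in arrays labelled knockout and 10.11 ± 0.13 in wild-type arrays (SD, n = 4 each). It was called with the sets as a block (limma adjusted p = 0.0438; range over 20 alternatives 0.0304 to 0.412), without replicate 3 labelled knockout (0.0455) and without wild-type replicate 2 (0.0456). The 3 members with groups apart were all lower in arrays labelled knockout; among all genes 12.9% had groups apart (5.74% lower and 7.2% higher, as shares of all genes). At an adjusted p below 0.1 in the fit without a block the same 3 members were called, against 7.6% of all genes. With the block 3 of the 7 members were called, against 4.68% of all genes.

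The remaining 3 members did not pass. Aqp7, the glycerol channel of adipocytes, read 6.37, 6.57, 6.49 and 6.48 in replicates labelled knockout, against 6.40, 6.45, 6.22 and 6.21 in wild-type replicates. Its groups overlapped, with a difference of 0.16 (SE 0.08; limma adjusted p = 0.300). Aqp3, its neighbour on chromosome 4, read 6.18, 6.05, 6.18 and 6.14 in replicates labelled knockout, against 5.95, 6.25, 6.05 and 6.07 in wild-type replicates. Both extremes of Aqp3 were wild-type arrays, and its difference of 0.06 (SE 0.08; limma adjusted p = 0.700) became -0.02 with quantile normalization and with cyclic loess. Without wild-type replicate 1 it was 0.01, without wild-type replicate 2 it was 0.11, and without replicate 2 labelled knockout 0.09. Aqp4, the astrocyte channel, read 6.32, 6.15, 5.87 and 5.84 in replicates labelled knockout, against 6.19, 5.89, 5.36 and 5.36 in wild-type replicates. In both groups replicates 1 and 2, the arrays with Y-linked signal, were the higher pair of Aqp4. Its difference between genotypes was 0.34 (SE 0.19; limma adjusted p = 0.330). Whether the values of Aqp3, Aqp4 and Aqp7 stand above background cannot be told from this table, which holds levels alone.

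**Figure D2:**
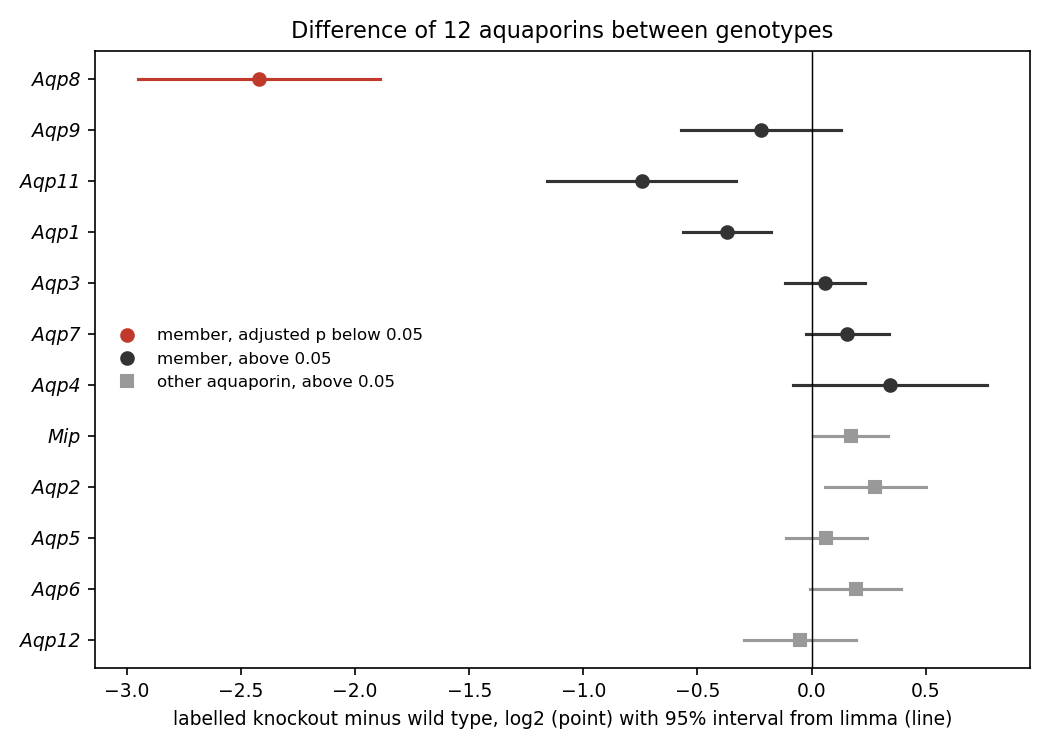
Difference between arrays labelled knockout and wild-type arrays on the log2 scale (x axis), with the 95% interval from limma, for the 7 members (circles) and the 5 other aquaporins (grey squares). Aqp8, in red at -2.42, is the only gene with an adjusted p below 0.05; the intervals of Aqp11 and Aqp1 also lie below 0.

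Of the 5 other aquaporins on the array, none was called by limma (unadjusted p under 0.05 for Mip and Aqp2, as for 21.2% of all genes). Aqp2, the vasopressin-regulated channel of the kidney, averaged 6.91 ± 0.19 in arrays labelled knockout and 6.64 ± 0.10 in wild-type arrays (SD, n = 4 each; limma adjusted p = 0.149). Mip, of the lens, differed by 0.17 (limma adjusted p = 0.216), and Aqp6, an intracellular channel of the kidney, by 0.19 (0.248). Aqp5, of salivary and lacrimal glands, differed by 0.07 (0.658) and Aqp12, of pancreatic acinar cells, by -0.05 (0.819). The median difference was 0.17 over these 5 and -0.22 over the 7 members, against 0.03 over all genes. Whether the values of these 5 stand above background cannot be told from levels alone.

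The spread between arrays differed among the members. In arrays labelled knockout the SD was 0.59 for Aqp8, 0.45 for Aqp11 and 0.37 for Aqp9, against 0.13, 0.09 and 0.09 in wild-type arrays, ratios of 4.66, 5.07 and 4.20. For the other 4 members the SD in arrays labelled knockout was the smaller one. A ratio above 4 occurred in 4.1% of all genes, where the median ratio was 1.11. These ratios are given without a test.

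Within the arrays labelled knockout, the 3 genes with the wide spread were lower in replicates 3 and 4, which have Xist signal, than in replicates 1 and 2, which have Y-linked signal. The genotypes differed in Aqp8 by -1.96 among the 4 arrays with Y-linked signal (3.89-fold; limma adjusted p = 0.0188) and by -2.88 among the 4 that have Xist signal (7.38-fold; limma adjusted p = 0.00107). For Aqp11 the Y-linked set gave -0.41 (limma adjusted p = 0.206) and the Xist set -1.08 (limma adjusted p = 0.0212). For Aqp9 the Y-linked set gave 0.12 (limma adjusted p = 0.788), with overlapping groups, and the Xist set -0.56 (limma adjusted p = 0.139), with groups apart. With 2 arrays per group, every one of the 7 members had groups apart in the Xist set, a share not counted over all genes. Of the 7 members Aqp8 was called within the Y-linked set, against 0.771% of all genes, and Aqp8 and Aqp11 within the Xist set, against 1.43%. Wild-type arrays showed no such step, with set means of 10.27 and 10.25 for Aqp8, 10.82 and 10.74 for Aqp11, and 10.82 and 10.92 for Aqp9 in arrays with Y-linked and with Xist signal.

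The difference between the sets was tested as an interaction of genotype and set. It was 0.92 for Aqp8 (SE 0.24; limma adjusted p = 0.686), 0.68 for Aqp11 (SE 0.17; limma adjusted p = 0.648) and 0.69 for Aqp9 (SE 0.19; limma adjusted p = 0.727), as the difference in arrays with Y-linked signal minus that in arrays with Xist signal. None of the 7 members passed, against 0.0271% of all genes. These 3 were under 0.05 before adjustment in that fit, as were 5.48% of all genes. Aqp1 kept a similar difference in both sets, -0.31 with Y-linked and -0.42 with Xist signal. Irrespective of genotype, Aqp4 averaged 6.14 in the Y-linked set and 5.61 in the Xist set, a set difference of 0.53 (SE 0.10; limma adjusted p = 0.115).

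**Figure D3:**
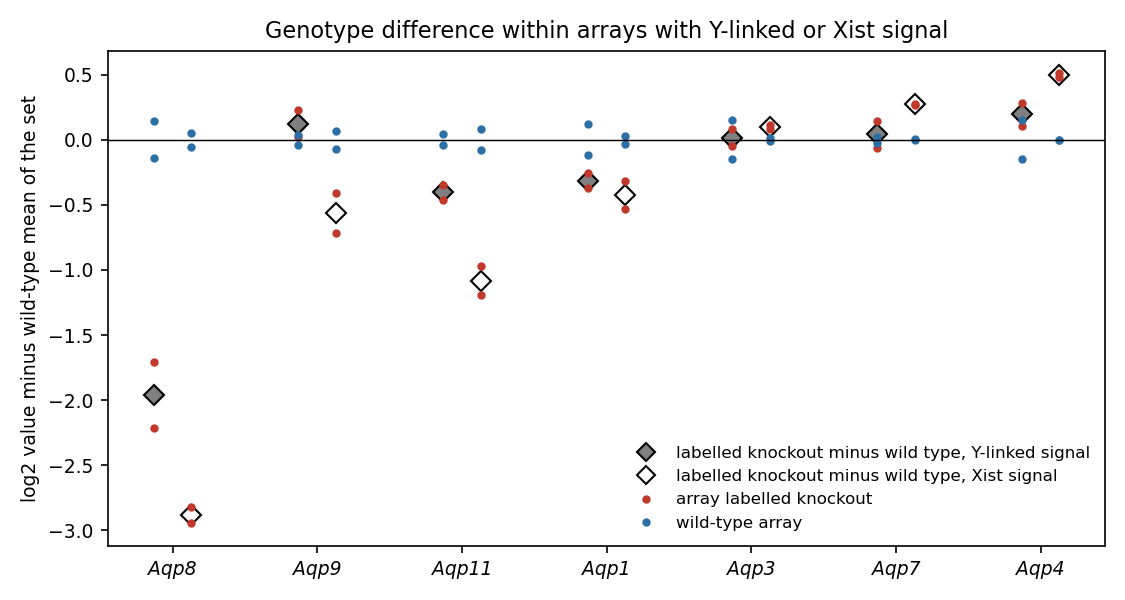
Log2 value of each array minus the wild-type mean of its set (y axis) for the 7 members; grey diamonds are the difference of labelled knockout minus wild type in arrays with Y-linked signal, white diamonds in arrays with Xist signal, red dots arrays labelled knockout and blue dots wild-type arrays. The white diamond lies below the grey one for Aqp8 (-2.88 and -1.96), Aqp11 (-1.08 and -0.41), Aqp9 (-0.56 and 0.12) and Aqp1 (-0.42 and -0.31). It lies above the grey one for Aqp3, Aqp4 and Aqp7.

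Whole liver holds several cell types, and in its RNA fewer cells of a type and less RNA per cell cannot be told apart. As a background for the calls in marker lists, 1.56% of all genes were called higher and 1.59% lower. Hepatocyte markers were near wild-type levels: of 14 measured, Tat, which breaks down tyrosine, rose by 0.51 (limma adjusted p = 0.0247) and 13 did not pass. Without 1 array the call of Tat was kept in 4 of 8 fits. The median difference of the hepatocyte markers was -0.08. The mean level of the list was 11.88 to 12 in arrays labelled knockout and 11.84 to 11.97 in wild-type arrays. The part of hepatocyte content in the aquaporin values was not tested. Of 9 periportal hepatocyte markers, Cdh1, an adhesion molecule, fell by 0.81 (limma adjusted p = 0.00987), Cyp2f2, a cytochrome P450, fell by 0.60 (limma adjusted p = 0.0294; called in 3 of 8 fits without 1 array) and 7 did not pass, with a median of 0.11 and differences between -1.38 and 0.52. None of 11 pericentral hepatocyte markers was called by limma, and their median was 0.07, with differences between -1.004 and 1.05. Against each gene's wild-type mean, the pericentral median was 0.35, 0.28, -0.42 and -0.15 in replicates 1 to 4 labelled knockout, against 0.27, -0.18, -0.08 and -0.04 in wild-type replicates. In arrays labelled knockout it was thus low in the same replicates 3 and 4 as Aqp8, Aqp9 and Aqp11. Its part in their values was not tested.

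The cell types that carry Aqp1 were checked by their markers too. Of 15 endothelial markers, Lyve1, a hyaluronan receptor, rose by 1.05 (limma adjusted p = 0.00660) and 14 did not pass, with a median of -0.03. Of 10 bile duct markers, Pkhd1, a protein of primary cilia, fell by 0.84 (limma adjusted p = 0.0249; called in 6 of 8 fits without 1 array) and 9 did not pass, with a median of -0.13. Of 14 red cell markers, Car2 (-1.57; limma adjusted p = 0.00596) and Car1 (-0.95; 0.0230), both carbonic anhydrases, and the tetraspanin Tspan33 (-0.52; 0.0436) fell and 11 did not pass. Without 1 array Car2 was called in all 8 fits, Car1 in 5 and Tspan33 in 3. The red cell median was -0.14, and among all genes 1.59% were called lower and 1.56% higher. The mean level of that list was 6.13 to 6.22 in arrays labelled knockout and 6.34 to 6.61 in wild-type arrays, so by this measure the groups were apart. By the list's median against wild type they overlapped, with -0.07 in replicate 3 labelled knockout and -0.11 in wild-type replicate 3. The part of red cells in the Aqp1 value was not tested.

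Against 1.56% of all genes called higher and 1.59% called lower, neutrophil markers were the list with the most calls. Of 17, 12 rose, 1 fell and 4 did not pass, with a median of 0.80. Among them Mmp8, a collagenase, rose by 2.16 (limma adjusted p = 0.00815), Ngp, a granule protein, by 2.42 (0.00851) and the chemokine receptor Cxcr2 by 0.86 (0.00815), while the early granule protease Prtn3 fell by 0.72 (0.0101). Their median against wild type was 0.56, 0.54, 0.97 and 0.96 in replicates 1 to 4 labelled knockout, higher in replicates 3 and 4, where Aqp8, Aqp9 and Aqp11 were lower. Of 17 macrophage markers, 7 rose and 10 did not pass, with a median of 0.56; the complement subunit C1qb rose by 0.64 (limma adjusted p = 0.00587) and the hemoglobin scavenger receptor Cd163 by 1.01 (0.0148). C1qc, another subunit of that complement complex, rose by 0.51 (0.0253), and Csf1r, a growth factor receptor, by 0.56 (0.0235), called in 3 and 5 of 8 fits without 1 array. The macrophage median against wild type was 0.44, 0.70, 0.31 and 0.65 in replicates 1 to 4 labelled knockout. Unlike the neutrophil median, it was not higher in both replicates 3 and 4. None of 9 adipocyte or 11 pancreas markers was called by limma, with medians of 0.10 and 0.03. The part of leukocyte RNA in the aquaporin values was not tested.

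**Figure D4:**
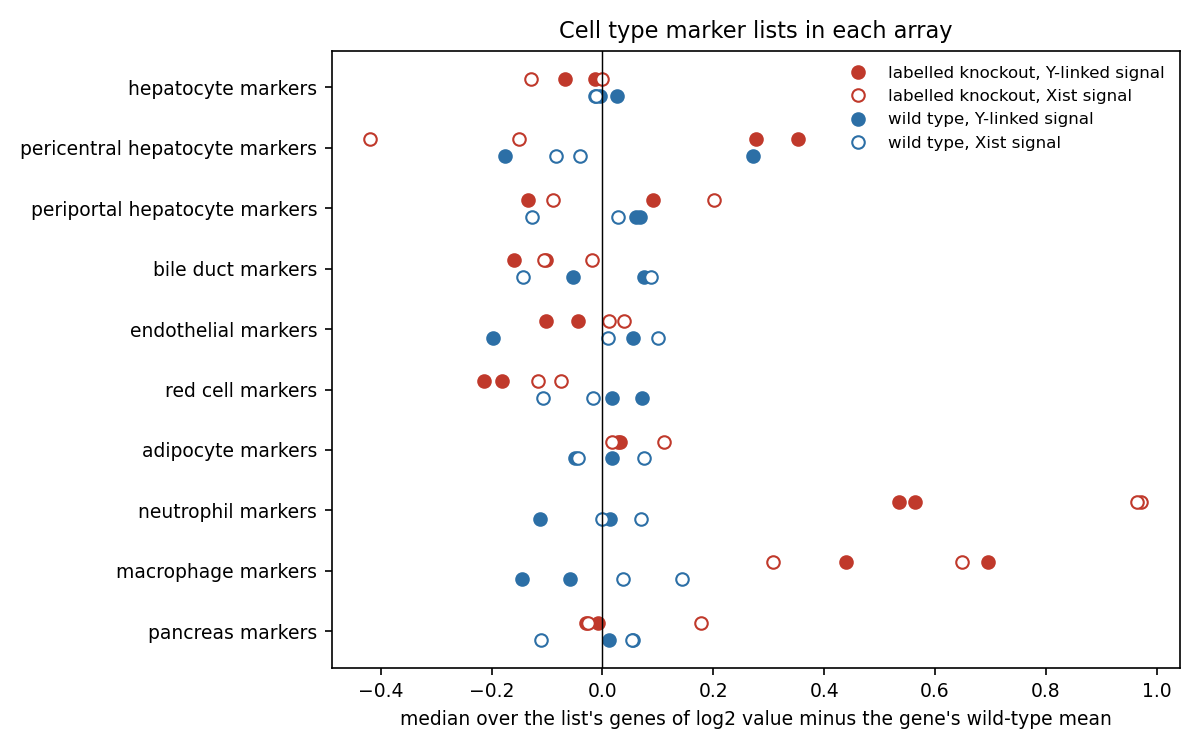
Median over the genes of each marker list of the log2 value minus the gene's wild-type mean (x axis), per array; red points are arrays labelled knockout, blue points wild-type arrays, filled with Y-linked and open with Xist signal. Hepatocyte points stay within -0.13 to 0.03, while neutrophil points of arrays labelled knockout lie between 0.54 and 0.97.

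Genes that share pathways with the aquaporins changed in small numbers. Of 21 genes of glycerol entry, storage and use, 1 rose, 2 fell and 18 did not pass, with a median of -0.01. Tkfc, which phosphorylates glyceraldehyde and dihydroxyacetone, fell by 0.71 (SE 0.10; limma adjusted p = 0.00851), and Gpam, which attaches the first fatty acid to glycerol phosphate, fell by 0.99 (SE 0.20; 0.0320). Plin5, a lipid droplet coat protein, rose by 0.51 (SE 0.11; limma adjusted p = 0.0357). Tkfc was called in all 8 fits without 1 array, Gpam in 2 and Plin5 in 1. Of 19 genes of bile formation and hepatocyte transport, Abcb11, the canalicular export pump for bile salts, fell by 0.70 (SE 0.15; limma adjusted p = 0.0351; called in 1 of 8 fits without 1 array) and 18 did not pass, with a median of -0.15. Among those 18 was Slco1a1, an organic anion transporter singled out after its values were seen, with the lowest difference of the list, -2.80 (SE 0.76; limma adjusted p = 0.0767). Slco1a1 read 9.46, 6.95, 5.76 and 6.46 in replicates labelled knockout, against 10.81, 11.02, 8.998 and 8.99 in wild-type replicates. Its groups overlapped, since replicate 1 labelled knockout lay above wild-type replicates 3 and 4. That overlap is between an array with Y-linked signal and arrays with Xist signal. Within each set the arrays labelled knockout lay below the wild-type arrays, a pattern that was not counted over all genes. None of 15 genes of osmolytes, cell volume and urea transport was called by limma, and their median was 0.10. For comparison, 1.59% of all genes were called lower and 1.56% higher.

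The genes most like Aqp8 over the 8 arrays were found by the root mean square difference between log2 profiles, each set to its own mean, among 18823 genes. The first 5 were Serpina6, a corticosteroid carrier (0.315), the lipid transporter Abca8a (0.372), Tlcd2 (0.391), Osgin1, an oxidative stress response gene (0.420), and the organic anion transporter Slc22a7 (0.442). All 5 were called lower in arrays labelled knockout, as this measure of likeness to Aqp8 favours, but without 1 array Serpina6 was called in 5 of 8 fits and Tlcd2 in 3. Serpina6 read 11.53, 10.57, 9.85 and 9.55 in replicates labelled knockout, against 12.22, 12.27, 12.41 and 12.38 in wild-type replicates. As with Aqp8, its lowest values were those of replicates 3 and 4 labelled knockout, and its wild-type values lay close together.

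Around Aqp11 these differences were smaller, but the measure is not scaled to a gene's spread. The SD over the 8 arrays was 0.50 for Aqp11 and 1.35 for Aqp8. Mov10, an RNA helicase, differed from the Aqp11 profile by a root mean square of 0.060. It was followed by Dhrs3, a retinal reductase (0.087), Echdc3 (0.107), the amidase Nit2 (0.122) and the aminoacylase Acy3 (0.122). Mov10 read 9.004, 9.14, 8.38 and 8.20 in replicates labelled knockout, against 9.31, 9.40, 9.41 and 9.15 in wild-type replicates. It showed the same step between replicates 1 and 2 and replicates 3 and 4 labelled knockout, which its choice by likeness to Aqp11 over these arrays favours. Like Aqp11, Mov10 was not called (difference -0.64, limma adjusted p = 0.102). Nit2 (-0.85; limma adjusted p = 0.0353) and Acy3 (-0.81; 0.0447) were called lower, each in 2 of 8 fits without 1 array, and Dhrs3 (-0.81; 0.0611) and Echdc3 (-0.74; 0.0546) were not.

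**Figure D5:**
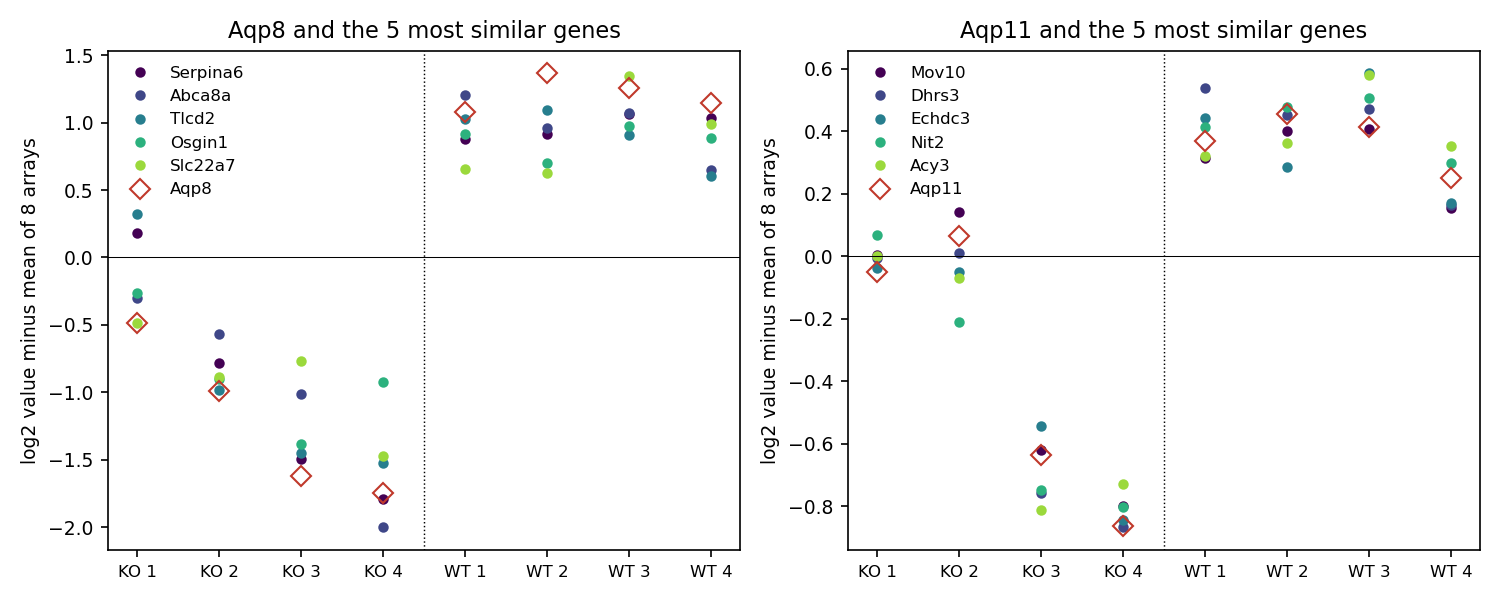
Log2 value minus the gene's mean over 8 arrays (y axis) in each array labelled knockout (KO 1 to 4) and wild type (WT 1 to 4) for Aqp8 and Aqp11 (open red diamonds) and the 5 genes most like each (dots). Aqp8 and Aqp11 are lower in KO 3 and KO 4 than in KO 1 and KO 2, and the dots beside Aqp11 follow it with a root mean square difference of 0.060 to 0.122.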

How the data were processed

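The deposited values are log2 levels. The submitters' processing notes name RMA and R 3.0.1 for them, and the sources used here give no settings and no genome build. The table has 41345 rows and 8 arrays, of which 23521 rows name 1 gene (22180 genes), 1814 name several and 16010 are unnamed; values span 2.49 to 13.8. For 1082 genes with more than 1 row the highest mean was kept. The number of arrays limits precision.

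Arrays labelled knockout were compared with wild-type arrays with limma 3.58.1 (lmFit, eBayes) in R 4.3.3 over all genes, without covariates or a filter, with Benjamini-Hochberg adjustment and a threshold of 0.05; tables and figures were made in Python 3.11.15. Sets of arrays were split by whether Y-linked genes read above Xist. On simulated data for this comparison (22180 genes, 200 changed) the fit recovered 82.5% of 1.5-fold changes with 10 false calls and 98.5% of 2-fold changes with 7. The simulated noise was independent between arrays, with the same SD for a gene in both groups. These shares therefore need not hold for genes of unequal spread, such as Aqp8, Aqp9 and Aqp11, or for genes that differ between the sets of arrays. No 2 arrays held identical values: the closest pair had a root mean square difference of 0.216, and without known repeats of 1 sample this does not show separate samples.

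Members and lists were chosen with earlier results of these data known. Named genes are all aquaporins, Il10, up to 4 called genes with the smallest p in each list, and the 5 genes most like the 2 members of largest SD over 8 arrays; neighbours on the genome are named as such, Xist and Y-linked genes to describe the arrays, and Slco1a1 after its values were seen; predicted genes and small RNAs were left out of the likeness search. Of the listed genes, 23 have no row of their own and were not used.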

Additional observations from a re-analysis of the deposited data

How the results depend on the processing

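Aqp8 was called in all 21 alternatives run, Aqp1 in 8 of 21 and Aqp11 in 5 of 21. The count of members called, 1 as reported, was 2 with the lowest 40% of genes left out, a common median, trend and robust settings or array weights (Aqp8 and Aqp1 each time), 2 in the arrays with Xist signal alone, 3 with the block for the sets and 3 at an adjusted p below 0.1 (Aqp1, Aqp8 and Aqp11). It ranged from 1 to 2 without 1 array. The count over all genes, 699, was 317 in the arrays with Xist signal, 171 in those with Y-linked signal and 1685 at an adjusted p below 0.1, and it ranged from 207 (without wild-type replicate 1 or replicate 4 labelled knockout) to 1040 (without replicate 1 labelled knockout); leaving out wild-type replicate 2, 3 or 4 gave 237, 238 and 410. Aqp3 changed sign to -0.019 with quantile normalization and -0.022 with cyclic loess, and Aqp9 to 0.12 in the arrays with Y-linked signal; neither was called, and the cause was not tested. Both groups use the numbers 1 to 4, but no label ties them to a litter or day, and same-numbered arrays deviated together with correlations of 0.272, 0.041, -0.10 and 0.291. With the replicate block 497 genes and 1 member, Aqp8 (-2.42; limma adjusted p = 0.00564), were called.

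Of 28 genes called and named outside the aquaporins, Il10 included, 14 kept the call in all 8 fits without 1 array. The other 14 lost it as follows. Without replicate 4 labelled knockout all but Serpina6 did, and without replicate 3 Plin5, Abcb11, Tspan33, Nit2 and Acy3. Without replicate 2 labelled knockout Gpam, Plin5, Abcb11, Cyp2f2, C1qc and Tlcd2 lost it. Without wild-type replicate 1 all but Tat and Car1 did, without replicate 2 all but Pkhd1, without replicate 3 all but Pkhd1, Csf1r and C1qc, and without replicate 4 Gpam, Plin5, Abcb11, Tat, C1qc, Nit2 and Acy3. Their highest adjusted p (limma) lay between 0.0657 for Serpina6 and 0.131 for Acy3. Without replicate 3 or replicate 1 labelled knockout the Aqp9 difference was -0.07 or -0.35, and Aqp3 gave 0.01 without wild-type replicate 1, 0.11 without wild-type replicate 2 and 0.09 without replicate 2 labelled knockout. The small number of arrays limits what a missed threshold shows.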

Other observations

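Of the 6 coding genes next to the 3 members with groups apart, 5 have a value, and none of these was called by limma. Lcmt1, beside Aqp8, had a difference of -0.48 (adjusted p = 0.104), and Zkscan2, on its other side, 0.01 (0.921). Clns1a, beside Aqp11, had -0.28 (0.134), while Pak1, on its other side, has no row of its own and was not tested, and Mindy4 and Ghrhr, on either side of Aqp1, had -0.20 (0.196) and -0.05 (0.823).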
